A study of Mus musculus with 12 samples.

Results

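The miRNAs described here are the passenger strands left after the let-7 family and a fixed list of other miR numbers were set aside, 64 of the 98 assays in the deposited Ct table whose name carries the mark #. The table holds 619 miRNA assays in all. The rule that picks the members uses assay names. The mark # is the older notation for the strand that was thought to be discarded, and the prefix hsa-, mmu- or rno- gives the species for which the assay was designed. The prefix is left out below unless 2 members share a name. The guide strand assays of the same hairpins, 52 assays for 58 members, served for comparison, and 6 members had no guide assay in the table.

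Ipsilateral hippocampi of male C57BL/6 mice were profiled by TaqMan OpenArray, a qPCR platform on which each assay yields a threshold cycle (Ct) that is lower where more of the miRNA is present. The 4 groups, of 3 samples each, were wild-type mice given vehicle into the amygdala (wt control), P2rx7-/- mice given vehicle (P2rx7-/- control), and wt and P2rx7-/- mice given 0.3 µg kainic acid into the amygdala to trigger status epilepticus (wt post-SE and P2rx7-/- post-SE). All mice received lorazepam (6 mg/kg, at 40 min), tissue was taken 8 h after the injection, and for every sample the hippocampi of 2 mice were combined. The P2rx7-/- mice lack exon 2 of P2rx7, which encodes the ATP-gated P2X7 receptor, in all cells and from conception, so a difference between genotypes is that of a constitutive knockout. Age is given as 8 weeks in the labels and as 8 to 12 weeks in the methods. Tissue was whole hippocampus, in which fewer cells of a type and less RNA per cell cannot be told apart.

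A miRNA hairpin is cut by Drosha and Dicer into a short duplex. The guide strand is loaded into an Argonaute protein and the passenger strand is usually degraded, although some hairpins deliver both strands. Loading favours the strand whose 5′ end is less tightly paired and begins with U or A, and the seed, bases 2 to 8, decides which mRNAs a strand can pair with. As the 2 strands of a hairpin carry different seeds, a passenger strand that is loaded could pair with targets of its own. Loading was not measured here.

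RefSeq (GRCm38.p6) gave the passenger and guide sequences of 45 of the 64 members, and a selection on which the results below turn is printed 5′ to 3′ with the seed in capitals. Of these 45 passenger strands 34 came from the 3p arm and 11 from the 5p arm. A first set holds hairpins whose 2 strands differed by a median of less than 1 cycle, each with its guide.
miR-335# (mmu-miR-335-3p, chr6:30741354-30741375, plus strand, within the span of Mest): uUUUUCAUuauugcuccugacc
miR-335 guide (mmu-miR-335-5p): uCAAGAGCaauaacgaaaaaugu
miR-872# (mmu-miR-872-3p, chr4:94665206-94665227, plus strand, within Ift74): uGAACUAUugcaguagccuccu
miR-872 guide (mmu-miR-872-5p): aAGGUUACuuguuaguucagg
miR-28# (mmu-miR-28a-3p, chr16:24827908-24827929, plus strand, within Lpp): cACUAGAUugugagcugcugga
miR-28 guide (mmu-miR-28a-5p): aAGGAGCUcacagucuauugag
miR-340# (mmu-miR-340-3p, chr11:50069762-50069783, plus strand, within Rnf130): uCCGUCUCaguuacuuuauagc
miR-340 guide (mmu-miR-340-5p): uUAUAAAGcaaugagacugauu

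A second set shows how a shared guide seed is lost on the passenger side. The guides of miR-17, miR-20a, miR-93 and miR-106b all carry the seed AAAGUGC, whereas their passengers carry 4 different ones. The first pair lies in the cluster named after miR-17 and the second within the span of Mcm7, a replication licensing gene.
miR-17# (mmu-miR-17-3p, chr14:115043721-115043742, plus strand): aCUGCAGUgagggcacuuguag
miR-20a# (mmu-miR-20a-3p, chr14:115044219-115044240, plus strand): aCUGCAUUacgagcacuuaaag
miR-93# (mmu-miR-93-3p, chr5:138165536-138165557, minus strand): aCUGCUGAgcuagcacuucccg
miR-106b# (mmu-miR-106b-3p, chr5:138165746-138165767, minus strand): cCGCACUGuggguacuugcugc
miR-93 guide (mmu-miR-93-5p): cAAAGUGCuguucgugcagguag

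The miR-29 passengers likewise carry 4 seeds where the guides of the family carry 1, AGCACCA.
miR-29a# (mmu-miR-29a-5p, chr6:31062711-31062732, minus strand): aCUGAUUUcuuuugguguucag
miR-29b# (mmu-miR-29b-1-5p, chr6:31063067-31063088, minus strand): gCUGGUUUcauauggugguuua
miR-29b-2# (mmu-miR-29b-2-5p, chr1:195037050-195037074, plus strand): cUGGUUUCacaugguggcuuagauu
miR-29c# (mmu-miR-29c-5p, chr1:195037562-195037583, plus strand): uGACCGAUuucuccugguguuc
miR-29b guide (mmu-miR-29b-3p): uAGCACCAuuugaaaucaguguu

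Only 3 seeds were shared by 2 passengers of different name, those of miR-99a# and miR-99b# (AAGCUCG), of miR-200a# and miR-200b# (AUCUUAC) and of miR-30c-1# and miR-30c-2# (UGGGAGA). The 45 passengers carried 42 seeds, against 32 among their 42 guides. The first base also differed between the strands. Of the 45 passengers 20 began with C, 10 with A, 9 with U and 6 with G, whereas of the 42 guides 22 began with U, 10 with A, 7 with C and 3 with G. The median GC content was 50.0% for passengers and 43.5% for guides. Of the 45 hairpins 34 lay within the span of another annotated gene. The annotation used gives spans only, so exons and introns were not told apart.

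Passenger strands were widely detected in the hippocampus. Of the 64 members 43 (67.2%) had a Ct below 28 in all 12 samples, against 33 of 52 guide assays (63.5%) and 335 of all 619 miRNA assays (54.1%). Among the 43 the mean Ct ran from 14.4 to 25.2 with a median of 20.75, whereas the 33 guides had a median of 16.55. The lowest mean Ct values were those of miR-7a# (14.4), a strand of the neuronal and endocrine miR-7, of miR-93# (16.3) and of miR-872# (16.9). The highest were those of miR-200a# (25.2) and miR-200b# (24.8), of an epithelial family, and of miR-214# (24.75), from the Dnm3os transcript. The spread within groups was small for most members. The residual SD, after normalization, had a median of 0.53 cycles over the 43 members against 0.64 over all 335 assays, was below 0.5 for 19 members and exceeded 1 for 7. Members at a high Ct were not the only ones with a wide spread, since miR-218-2# (mean Ct 20.8) had an SD of 1.18.

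**Figure D1:**
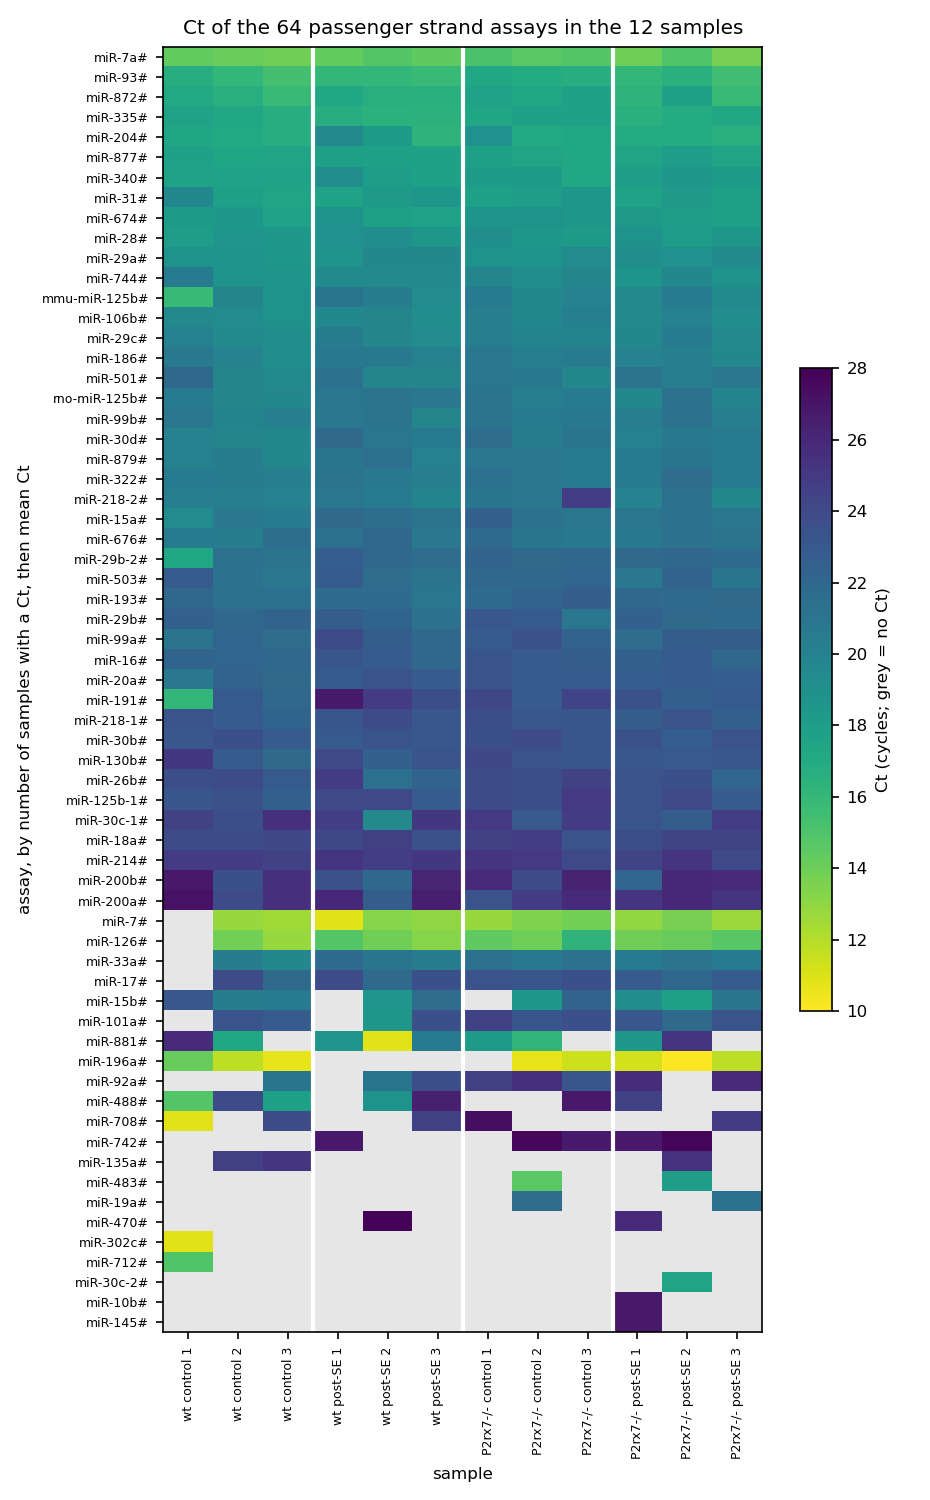
Ct of each of the 64 passenger strand assays (rows, by number of samples with a Ct and then by mean Ct) in the 12 samples (columns, by group), with yellow for a low Ct, dark blue for a high Ct and grey for no Ct. The upper 43 rows are complete, and the column of wt control replicate 1 departs from its neighbours for miR-191#, miR-29b-2# and mmu-miR-125b#.

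The wt control replicate 1 stood apart from the other 11 samples, which bears on every comparison with wt controls. After normalization 72 of 335 assays in it were more than 2 cycles off the median of the remaining samples, against 3 to 28 assays in each of the others. Among the 43 members this held for 5, against 0 to 4 in the others, each with a higher level in that sample: miR-191# by 7.95, miR-29b-2# by 4.64, mmu-miR-125b# by 4.16, miR-15a# by 2.12 and miR-20a# by 2.00 on the log2 scale. In addition 4 members, miR-126#, miR-33a#, miR-17# and miR-7#, had a Ct in every sample but this one. Whether the mmu-miR-125b# and rno-miR-125b# assays read the same strand is not settled by their names. The mmu-miR-125b# assay read 4.64 cycles below the rno-miR-125b# assay in wt control replicate 1, where the difference in the other samples ran from -1.49 to 0.10 cycles. Calls against wt controls that were gained or lost without this sample are named below.

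Markers of the cell types of the tissue were read on their guide assays. The guides miR-124a, miR-9, miR-128a and miR-138, enriched in neurons, had median Ct values of 14.65, 10.5, 14.4 and 10.6 over the samples with a Ct, of which there were 4 for miR-9, 10 for miR-138, 11 for miR-124a and 12 for miR-128a. The endothelial miR-126 (10.6) and the choroid plexus miR-204 (11.01) were also at low Ct. Of the myeloid markers miR-223 was at 13.75 and 15.91 on separate assays, miR-142-3p at 17.79 and miR-142-5p at 25.64. Liver miR-122 was at a median of 24.1 in 11 samples. Of the muscle markers miR-133a was at 16.08, miR-1 at 21.74 and 22.11 on separate assays, and miR-206 at 22.75. The epithelial guides miR-200a (18.3), miR-200b (18.01 and 18.8), miR-429 (18), miR-200c (19.75 and 20.91) and miR-141 (21.19) were also read. Erythrocyte miR-451 had a median Ct of 17.1 in wt control, 17.7 in P2rx7-/- control, 18.8 for wt post-SE and 18.7 for P2rx7-/- post-SE samples, and its part in the results below was not tested.

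Most passengers lay far above their guide in Ct, but the balance varied widely between hairpins. In each sample the guide Ct was subtracted from the passenger Ct, which needs no normalization. The value compares strands only up to the unknown efficiencies of the 2 assays, and its change between groups is also in cycles, with the efficiencies not measured. Of the 26 member pairs with a Ct for both strands in all samples, the passenger had the higher Ct in all 12 samples in 17, the lower Ct in all 12 in 2, and either in 7. The median over pairs was 5.30 cycles, and 14 pairs exceeded 5 cycles.

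Among the 26 complete pairs the largest differences were those of miR-30c-1# (median 13.1 cycles, range 7.39 to 15.5), miR-30b# (12.2, range 10.4 to 13.0) and miR-16# (11.4, range 10.98 to 12.1). These belong to hairpins with abundant guides, since miR-16 had a mean Ct of 11.03 and miR-30b of 11.3. Differences as large were also listed for pairs whose guide lacked a Ct in some samples. The medians were 12.56 cycles for miR-218-1# (8 samples), 12.43 for miR-191# (11 samples) and 11.81 for miR-125b-1# (11 samples).

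At the other end the strand called passenger was the more readily detected. The Ct of miR-7a# was below that of the miR-7 assay (designed for the fly sequence) in all 12 samples, with differences of -5.99 to -3.71 cycles and a median of -4.36. The miR-7# assay, whose name does not settle which arm it reads, had a median difference of -5.67 cycles in its 11 samples. The Ct of miR-28#, of the hairpin within the Lpp gene, was below that of miR-28 in all 12 samples, with differences of -2.27 to -0.20 cycles. Outside the complete pairs, miR-879# had a Ct in all samples and its guide in 8, where the difference ran from -7.38 to -4.70 cycles. The miR-193# assay was below its guide in 10 of 11 samples, the exception being wt control replicate 1.

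Strands were nearly level by the median in 7 hairpins, whose median difference lay within 1 cycle of 0: miR-28#, miR-503#, miR-93#, miR-340#, miR-872#, miR-335# and miR-18a#. Single samples could lie far from it, since miR-503# ran from -3.71 to 5.96 cycles. For miR-340# the range was -5.34 to 0.32, with the lowest value in wt post-SE replicate 2. Of these 7 passengers 3 began with U (miR-335#, miR-340#, miR-872#), 2 with A, 1 with C and 1 with G. Of the 16 passengers with a sequence and a difference of 1 cycle or more, 10 began with C, 2 with U, 2 with A and 2 with G. These counts are a description of few hairpins, some of them in 1 cluster.

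**Figure D2:**
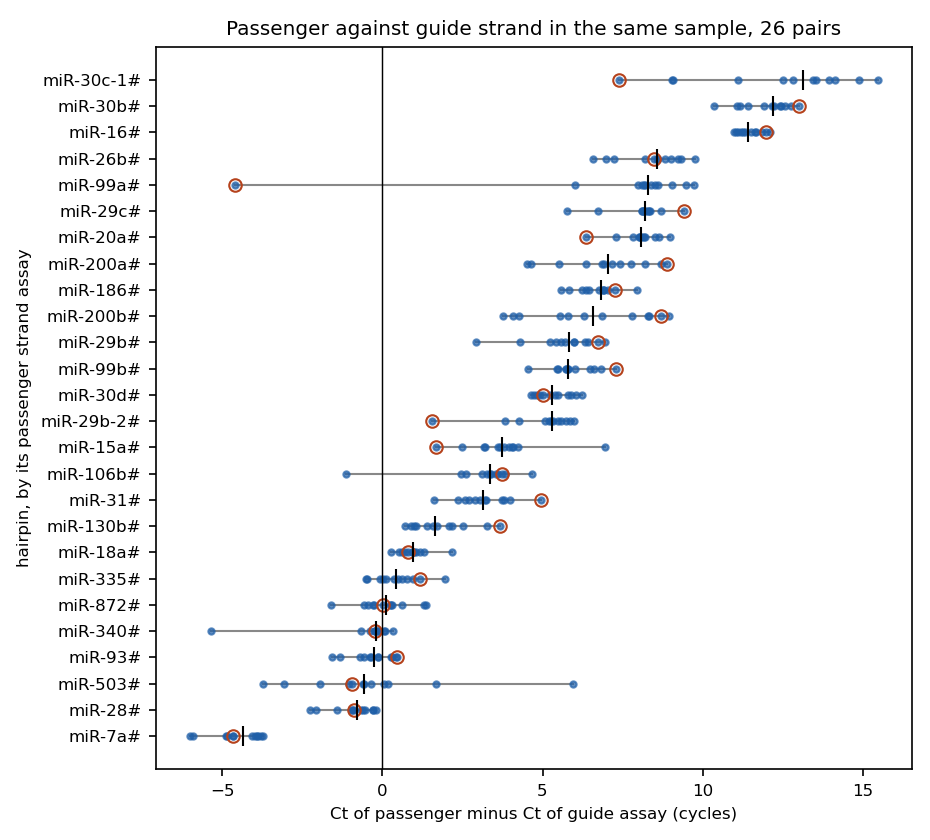
Passenger Ct minus guide Ct (cycles, horizontal axis) for the 26 hairpins with both strands measured in all 12 samples, with 1 point per sample, a grey line over the range, a black tick at the median and a red ring around wt control replicate 1. Points left of 0 have the lower Ct on the passenger assay, as for miR-7a# and miR-28# in every sample, and wt control replicate 1 is the far point of miR-99a#.

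Of the other 32 pairs 16 had the passenger in all samples and the guide in fewer. No Ct below 10.06 is listed in the table, and some guides whose listed values came close to it lacked a Ct in other samples. The guide miR-29a had a Ct in 3 samples with a lowest value of 10.1, miR-218 in 8 with 10.5 and miR-126 in 10 with 10.1, whereas miR-30b (lowest value 10.07) and miR-16 (10.2) had a Ct in all 12. For the 16 hairpins the passenger assay was the more complete record of the pair. The differences between groups are given for it without the guide.

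For the comparison of groups, the mean Ct over the 335 complete assays was subtracted in each sample, and the fold change (FC) was taken against the average Ct of the reference samples. A member was called up when the mean of its 3 FCs exceeded 1.5 and down when it was below 0.6. This rule has no test. Its calls are set beside limma fitted to all 335 assays, with Benjamini-Hochberg adjustment, and beside whether the 3 samples of the groups overlap. An exact two-sided permutation test of 3 samples against 3 cannot give a p below 0.1. No member had an adjusted p below 0.05 in limma in any of the 8 contrasts, and neither did any other of the 335 assays (0.0%).

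Status epilepticus in wt mice was accompanied by a higher level of miR-335#, the 3p strand of a hairpin within the imprinted gene Mest. Relative to the wt control average, the wt post-SE samples stood at 2.09, 1.91 and 1.74 for miR-335#, where the wt controls stood at 1.03, 0.93 and 1.04. The groups did not overlap, and the lowest post-SE sample was well above the highest control. The mean FC was 1.91 ± 0.18 (SD, n = 3), a log2 difference of 0.93 with a standard error of 0.26 (limma adjusted p = 0.492). It had the lowest p of the 43 members and the lowest residual SD, 0.18 cycles. Without each sample in turn its log2 difference stayed between 0.87 and 1.00. Its guide miR-335 had a mean FC of 0.90 ± 0.16 (SD, n = 3).

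Lower without overlap and with a limma p next to that of miR-335# was miR-30d#, the 3p strand of a member of the miR-30 family. It was at 0.39, 0.59 and 0.60 in the wt post-SE samples against 1.17, 0.95 and 0.91 in the wt controls. All post-SE samples were below all controls. The mean FC was 0.53 ± 0.12 (SD, n = 3), with a limma adjusted p of 0.664, and it was 0.57 without wt control replicate 1. The guide miR-30d had a mean FC of 1.09 ± 0.16 (SD, n = 3). Also lower without overlap, but not called, was rno-miR-125b#, at 0.87, 0.59 and 0.59 against 0.94, 1.12 and 0.96 (mean FC 0.69 ± 0.16, SD, n = 3, limma adjusted p = 0.664).

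In all, 6 of 43 members (14.0%) were called up in wt post-SE samples, where the rule called 23.3% of all assays up, and 7 (16.3%) were called down, against 12.5% of all. The members called up besides miR-335# overlapped the controls and had wide spreads. The FCs of miR-30c-1# were 1.495, 40.4 and 0.67, those of miR-200b# 5.43, 13.5 and 0.58, those of miR-200a# 1.09, 8.05 and 0.50, and those of miR-26b# 0.62, 5.202 and 2.26. In each of these 4 the highest value was that of wt post-SE replicate 2. The remaining one was miR-31# (mean FC 1.52). Without wt post-SE replicate 2 the count called up was 4. Without wt control replicate 1 it was 7, with miR-31# no longer called (mean FC 1.14) and miR-29b# (1.58) and miR-30b# (1.65) called.

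The lowest FCs were those of miR-191#, the passenger of an abundant miRNA within Dalrd3. The wt post-SE samples were at 0.018, 0.053 and 0.093, against 24.6, 0.16 and 0.26 in the wt controls. Groups did not overlap, but the first control alone set the scale, and the mean FC of 0.055 became 0.27 without it. The limma adjusted p was 0.664. The others called down were miR-29b-2# (mean FC 0.28), mmu-miR-125b# (0.32), miR-20a# (0.50), miR-15a# (0.53) and miR-99a# (0.56). Of the 7 members called down, miR-30d# and miR-191# were still below 0.6 when wt control replicate 1 was left out. No overlap with a lower level was seen for 5 of 43 members (11.6%), against 5.07% of all assays, and with a higher level for 1 (2.33%), against 5.97%. The unadjusted limma p was below 0.05 for 3 of 43 members, miR-335#, miR-30d# and miR-191#, and for 3.88% of all assays. The two-group test of the methods gave 3 members, miR-335#, miR-30d# and rno-miR-125b#, and 11 of 335 assays. The median log2 difference was -0.01 over the members and -0.09 over all 335 assays.

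**Figure D3:**
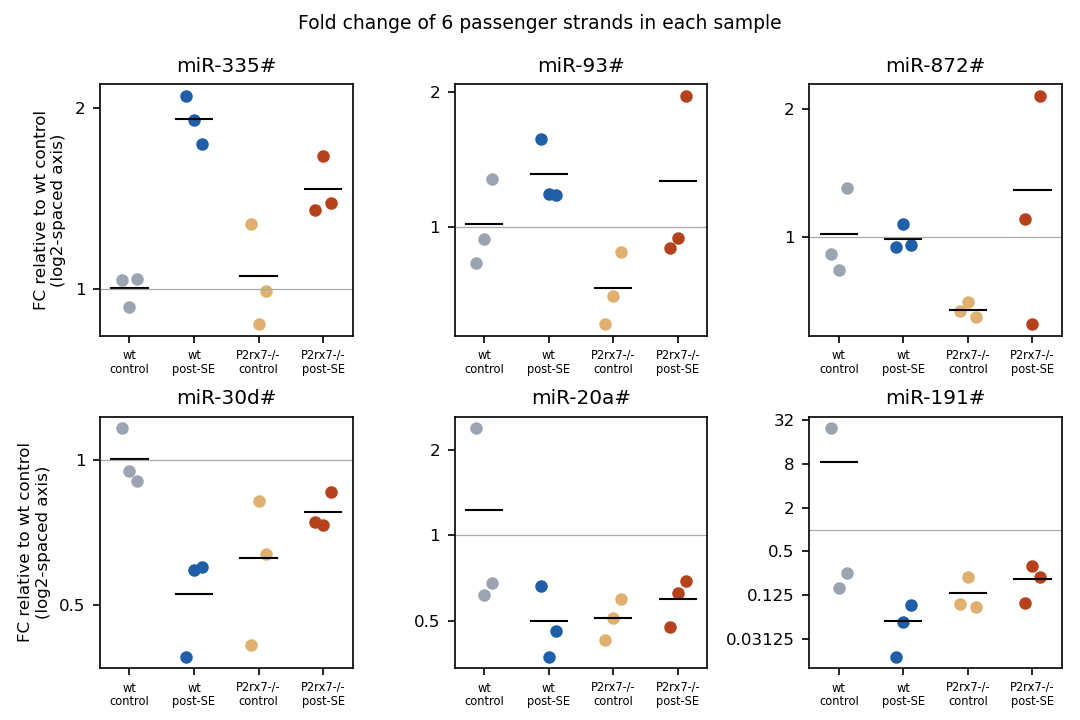
FC relative to the wt control average (log2-spaced vertical axis) of 6 passenger strands, with 1 point per sample and a black bar at the arithmetic mean of each group of 3. The wt post-SE samples of miR-335# lie between 1.74 and 2.09, above all wt controls, and 1 wt control sample at 24.6 sets the scale of miR-191#.

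In P2rx7-/- mice the same direction was seen for miR-335#, at a smaller size. Relative to the P2rx7-/- control average it was at 1.30, 1.61 and 1.34 post-SE, against 1.24, 0.84 and 0.96 in the controls. The groups again did not overlap, but the mean FC of 1.42 ± 0.16 (SD, n = 3) was below the threshold, with a limma adjusted p of 0.998. The guide miR-335 had a mean FC of 0.68 ± 0.11 (SD, n = 3), a value on which P2rx7-/- control replicate 3 weighed. Relative to the wt control average this guide was at 1.12, 0.96 and 2.18 in P2rx7-/- controls and at 0.73, 0.96 and 1.025 post-SE.

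The member with the lowest p in P2rx7-/- mice was miR-93#, from the miR-106b-25 cluster. Its FCs were 1.25, 1.31 and 2.71 post-SE, where the P2rx7-/- controls had 0.84, 0.97 and 1.22. The groups were adjacent without overlap. The mean FC was 1.76 ± 0.83 (SD, n = 3, limma adjusted p = 0.998), while its guide miR-93 had a mean FC of 1.01 ± 0.11. The FCs of miR-872# were 1.63, 0.93 and 3.17, overlapping controls that lay between 0.96 and 1.05. For miR-218-2#, a strand of the hairpin within Slit3, the FCs of 2.97, 1.76 and 5.70 rested on a P2rx7-/- control that was at 0.18 where the others were at 2.41 and 2.36.

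The rule called 9 of 43 members up (20.9%) in P2rx7-/- post-SE against P2rx7-/- control samples, beside 17.9% of all assays, and 1 down (2.33%), beside 7.16%. The member called down was miR-200a# (mean FC 0.54). The others called up were miR-26b#, miR-204#, miR-125b-1#, miR-200b#, miR-191# and miR-30c-1#, with mean FCs of 1.61 to 2.63, and all overlapped the controls. A higher level without overlap was found for 2 members (4.65%), against 3.88% of all assays, and a lower one for 0, against 2.69%. The unadjusted limma p was below 0.05 for 0 of 43 members and for 2.99% of all assays. The two-group test of the methods also gave 0 members, and 8 of 335 assays. Without P2rx7-/- post-SE replicate 3 the count called up was 4, and the log2 difference of miR-93# went from 0.72 to 0.35. The median log2 difference of the members, 0.29, was above that of all 335 assays, 0.02, and that of the 33 guides was 0.01.

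Set against wt controls, the P2rx7-/- post-SE samples gave 7 members called up (16.3%, against 20.6% of all assays) and 4 called down (9.3%, against 13.1%). The unadjusted limma p was below 0.05 for 0 members and for 3.58% of all assays. The two-group test of the methods gave 1 member, miR-335#, and 16 of 335 assays. The count called up was 3 on omitting P2rx7-/- post-SE replicate 3 and 11 on omitting replicate 1 of that group. Again miR-335# had the lowest p, with 1.35, 1.66 and 1.39 against wt controls between 0.93 and 1.04. Its mean FC of 1.47 ± 0.17 (SD, n = 3, limma adjusted p = 0.712) missed the threshold although the groups did not overlap. The 1 member lower without overlap was miR-30d# (mean FC 0.78 ± 0.07), against 7.46% of all assays. Called up were miR-200b# (mean FC 3.62), miR-30c-1# (2.87), miR-26b# (1.94), miR-31# (1.56), miR-29b# (1.53), miR-503# (1.53) and miR-744# (1.51), each overlapping the controls. Both post-SE groups were set against the same control samples. Without wt control replicate 1 the count called up was 8, with miR-31#, miR-503# and miR-744# no longer called (mean FCs 1.16, 1.18 and 1.17) and miR-214#, miR-30b#, miR-28# and miR-204# called (1.65, 1.61, 1.55 and 1.55).

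The downward calls against wt controls turned almost wholly on wt control replicate 1. The 4 members called down in P2rx7-/- post-SE samples, miR-29b-2#, mmu-miR-125b#, miR-191# and miR-20a#, were called down in all 3 groups set against wt controls, and all 4 are among the members for which that sample stood over 2 cycles higher. Without it their mean FCs in P2rx7-/- post-SE samples were 0.99, 1.05, 1.05 and 0.92. Over the 3 comparisons 17 downward calls in 8 members were made with the sample and 2 without it.

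Of vehicle-injected P2rx7-/- mice against wt controls the FC rule called 5 members up (11.6%, against 21.2% of all assays) and 6 members down (14.0%, against 15.5%). Besides the 4 members called down in all 3 groups, miR-15a# (mean FC 0.58) and miR-218-2# (0.59) were called down. Without wt control replicate 1 no downward call remained, and the mean FCs of these last became 0.92 and 0.67. The count up was then 7, with miR-200b# and miR-31# no longer called (mean FCs 1.18 and 1.21) and miR-28#, miR-214#, miR-877# and miR-18a# called (1.60, 1.58, 1.54 and 1.53). The lowest p was that of miR-30d#, at 0.41, 0.82 and 0.64 against 1.17, 0.95 and 0.91. All P2rx7-/- controls were below all wt controls, but the mean FC of 0.62 ± 0.21 (SD, n = 3, limma adjusted p = 0.616) was not below 0.6. It was the only member with an unadjusted p below 0.05, as were 5.97% of all assays, while the two-group test of the methods gave 2 members, miR-106b# and miR-872#, and 13 of 335 assays. The next in order, miR-20a#, stood at 0.43, 0.51 and 0.59 against 2.38, 0.62 and 0.68, a mean FC of 0.51 that became 0.79 without the first control.

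A lower level without overlap in P2rx7-/- controls was found for 6 members (14.0%, against 10.4% of all assays): miR-30d#, miR-20a#, miR-218-2#, miR-872#, miR-106b# and miR-7a#. Of these miR-872# was the tightest, with 0.67, 0.71 and 0.65 in the P2rx7-/- controls against 0.92, 0.84 and 1.30 in the wt controls, but its mean FC of 0.68 ± 0.03 (SD, n = 3) was above the threshold and its limma adjusted p 0.707. A higher level without overlap was found for 1 member (2.33%, against 3.58%), miR-877#, at 1.22, 1.26 and 1.78 against 1.18, 1.05 and 0.81. This strand comes from a mirtron of Abcf1, a hairpin that is spliced out rather than cut by Drosha. The members called up were miR-200a# (mean FC 2.98), miR-30c-1# (2.01), miR-29b# (1.70), miR-200b# (1.69) and miR-31# (1.62), and all overlapped the wt controls.

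Between the genotypes after status epilepticus, 5 members were called up in P2rx7-/- mice (11.6%, against 17% of all assays) and 0 called down (0.0%, against 4.48%). The unadjusted limma p was below 0.05 for 0 members and for 1.19% of all assays. The two-group test of the methods gave 1 member, miR-335#, and 4 of 335 assays. The count of members called up was 3 on omitting P2rx7-/- post-SE replicate 3 and 12 on omitting replicate 2 of that group. Relative to the wt post-SE average, miR-30d# was at 1.44, 1.42 and 1.66 in P2rx7-/- post-SE samples against 0.75, 1.15 and 1.16, without overlap. The mean FC was 1.51 ± 0.14 (SD, n = 3, limma adjusted p = 0.999). The FCs of miR-191# were 2.22, 6.97 and 4.99 against 0.40, 1.19 and 2.08, also without overlap and without the wt controls entering. The others called up, miR-204# (mean FC 2.26), rno-miR-125b# (1.58) and miR-218-1# (1.52), overlapped the wt post-SE samples, as did miR-186# (mean FC 1.49), which was not called and lies within Zranb2. The level of miR-335# was lower in P2rx7-/- post-SE samples, at 0.71, 0.87 and 0.73 against 1.10, 1.00 and 0.91, with a mean FC of 0.77 ± 0.09 that passed neither rule (limma adjusted p = 0.999). No overlap was seen with a higher level for 3 members (6.98%, against 2.09% of all assays), miR-30d#, miR-191# and miR-15a#, and with a lower level for 1 (2.33%, against 3.58%), miR-335#.

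Averaged over genotypes, miR-335# had the lowest p of the members after status epilepticus. Its log2 difference was 0.71 with a standard error of 0.18 (limma adjusted p = 0.296), and it was between 0.65 and 0.79 without each sample in turn. It was the only member with an unadjusted p below 0.05, as were 3.28% of all assays. Next were miR-93# (log2 difference 0.55, standard error 0.26) and miR-26b# (0.89, standard error 0.51), both with a limma adjusted p of 0.829. Averaged over treatments, the genotypes differed with an unadjusted p below 0.05 in 0 members and in 4.78% of all assays, and the lowest p was that of miR-214# (log2 difference 0.42, limma adjusted p = 0.930), followed by miR-193# (-0.32) and miR-877# (0.27).

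The interaction asks whether the difference after status epilepticus differed between genotypes. Its unadjusted p was below 0.05 for 2 of 43 members, against 2.39% of all assays, and no adjusted p was below 0.851. For miR-30d# the interaction was 1.32 on the log2 scale with a standard error of 0.46 (limma adjusted p = 0.851). Its level was lower post-SE in wt mice (log2 difference -0.95) and not in P2rx7-/- mice (0.37), whose controls lay below the wt controls. For miR-191# it was 5.11 with a standard error of 2.24 and became 2.81 without wt control replicate 1. After these came miR-20a#, at 1.26, which became 0.64 without that sample. For miR-335# the wt and P2rx7-/- log2 differences were 0.93 and 0.50, and the interaction was -0.43 with a standard error of 0.36.

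**Figure D4:**
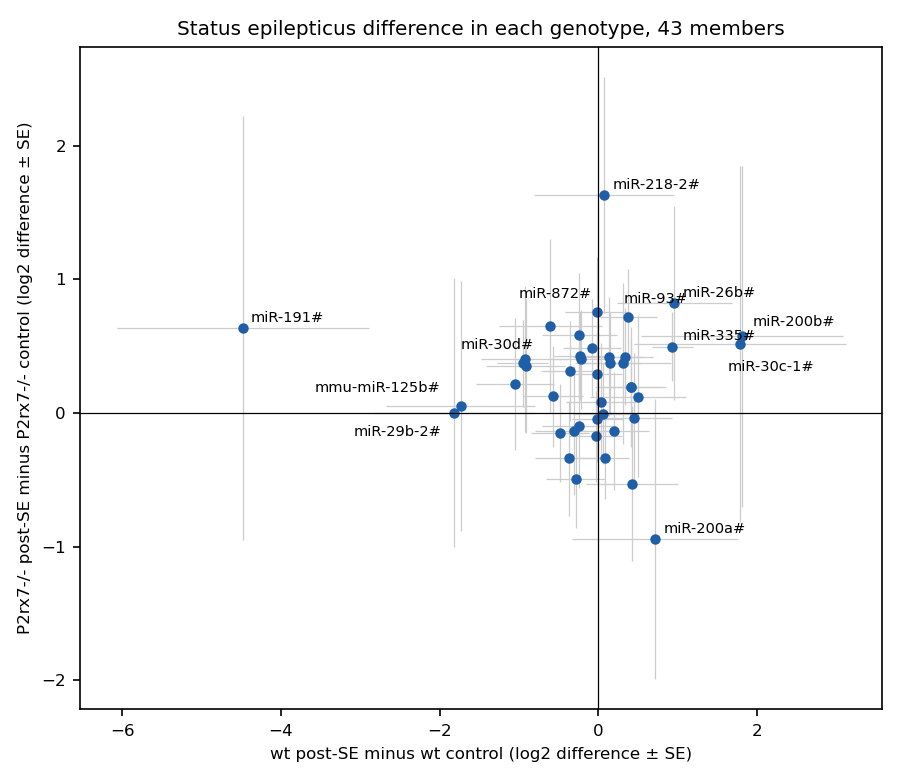
Log2 difference after status epilepticus in wt mice (horizontal axis) and in P2rx7-/- mice (vertical axis), each against the controls of its own genotype, for the 43 complete members, with bars for the standard error from limma. Most points lie near 0 with bars across it, miR-335# is above 0 on both axes, and miR-191# lies far left through 1 wt control sample.

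For the strand difference, which needs no normalizer, miR-335# again had the lowest p of the member pairs after status epilepticus in each genotype. Its passenger Ct enters this value too, so the ranking is not separate support. The passenger Ct minus the guide Ct was 1.17, 0.77 and 0.49 cycles in wt controls, whereas wt post-SE samples had -0.52, -0.47 and 0.13. In P2rx7-/- controls it was 0.62, 0.95 and 1.95, and in P2rx7-/- post-SE samples -0.07, 0.02 and 0.37. In both genotypes every post-SE sample was below every control, and the means went from 0.81 to -0.29 cycles in wt and from 1.17 to 0.11 cycles in P2rx7-/- mice. A lower strand difference without overlap was found for 2 of 26 member pairs in wt mice and for 3 of 26 in P2rx7-/- mice. A higher strand difference without overlap was found for 1 of 26 in wt mice and for 0 of 26 in P2rx7-/- mice. The share without overlap among all strand pairs is not given, so these counts are no result about the members.

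The shift was -1.10 cycles in wt mice (standard error 0.47, limma adjusted p = 0.463 over 45 pairs) and -1.06 cycles in P2rx7-/- mice (standard error 0.47, limma adjusted p = 0.633). The second became -0.68 cycles without P2rx7-/- control replicate 3, the sample at 1.95. The 2 shifts use separate samples throughout. Averaged over genotypes it was -1.08 cycles (95% confidence interval -1.82 to -0.34, limma adjusted p = 0.190).

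For miR-30d the strand difference was wider in wt post-SE samples. It was 4.85 ± 0.14 cycles in wt controls and 5.92 ± 0.13 in wt post-SE samples (SD, n = 3 each), a shift of 1.07 cycles (limma adjusted p = 0.463) without overlap. These 2 were the member pairs with an unadjusted p below 0.05 in wt mice, where 8.89% of the 45 pairs passed. In P2rx7-/- mice miR-335# alone did so, where 4.44% passed. Next in P2rx7-/- mice were miR-872# (-1.40 cycles) and miR-130b# (-1.46 cycles), the latter without overlap, both with a limma adjusted p of 0.633. No member pair had an unadjusted p below 0.05 between P2rx7-/- and wt controls (2.22% of the 45 pairs did), between the post-SE groups (2.22%), between P2rx7-/- post-SE and wt control samples (4.44%), in the interaction (4.44%) or for genotype averaged over treatments (0.0%). Averaged over genotypes miR-335# was the only one after status epilepticus (4.44%). No member pair passed an adjusted p of 0.05, although 1 of the other pairs did (2.22%) in P2rx7-/- post-SE against wt control samples and averaged over genotypes.

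Between genotypes the lowest p for the strand difference was that of miR-28#, whose passenger lay further below its guide in P2rx7-/- mice, with a genotype difference of -0.80 cycles averaged over treatments (95% confidence interval -1.68 to 0.08, limma adjusted p = 0.750). Next was miR-29c# (-0.88 cycles), which also had the lowest p between the control groups, at 7.33 ± 1.37 cycles in P2rx7-/- and 8.60 ± 0.70 in wt controls (SD, n = 3 each), followed there by miR-30b# (-1.09 cycles). Between the post-SE groups miR-186# came first, at 6.27 ± 0.66 cycles in P2rx7-/- and 7.26 ± 0.61 in wt mice (SD, n = 3 each). These groups nearly touched, at 6.89 cycles in the highest P2rx7-/- and 6.90 in the lowest wt sample. The pair of miR-28# came next (-0.94 cycles). Between P2rx7-/- post-SE samples and wt controls miR-130b# (-1.24 cycles) and miR-29b# (-1.47 cycles) had the lowest p, and in the interaction miR-872# (-1.27 cycles) and miR-20a# (-1.14 cycles). The adjusted p of these, by limma, was 0.701 or higher, and several rested on 1 sample. Without P2rx7-/- control replicate 3 the control group differences of miR-29c# and miR-30b# became -0.48 and -0.49 cycles, and the genotype difference of miR-29c# averaged over treatments became -0.49. Without wt control replicate 1 that of miR-130b# became -0.54 cycles and the interaction of miR-20a# -0.57. Without P2rx7-/- post-SE replicate 1 the interaction of miR-872# became -0.76 cycles and its shift in P2rx7-/- mice -0.89, and without replicate 3 of that group the post-SE difference of miR-28# became -0.52. For miR-186# it became -0.63 without wt post-SE replicate 1.

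**Figure D5:**
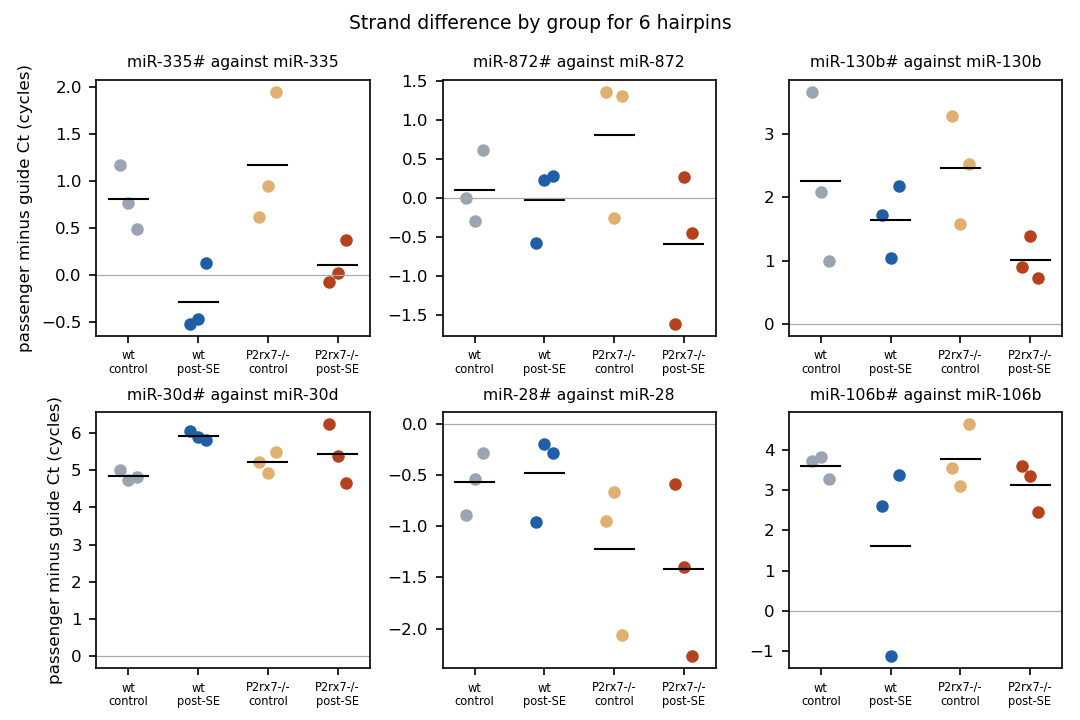
Passenger Ct minus guide Ct (cycles, vertical axis) by group for 6 hairpins, with 1 point per sample and a black bar at the mean of 3. For miR-335# the post-SE samples lie between -0.52 and 0.37 and the controls between 0.49 and 1.95, without overlap in either genotype.

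The members were also read by family. Of the passengers of the miR-17 cluster and its paralogs, from clusters known for their part in proliferation, 4 of 7 were complete and had mean FCs of 0.50 to 1.31 in wt post-SE samples, with miR-20a# alone called, down. In P2rx7-/- mice they were at 0.91 to 1.76, with miR-93# alone called, up. The 4 miR-29 passengers, whose guides act on collagen and other matrix transcripts, had mean FCs of 0.28 to 1.46 in wt post-SE and of 0.81 to 1.17 in P2rx7-/- post-SE samples against their own controls, and only miR-29b-2# was called, in wt mice and down. The miR-29b# and miR-29b-2# assays lay within -0.91 and 1.23 cycles of each other in 11 samples and 5.17 cycles apart in wt control replicate 1.

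Of the miR-30 passengers 3 of 4 were complete, and they did not share a direction in wt mice, where log2 differences ran from -0.95 (miR-30d#) to 1.78 (miR-30c-1#). Of the miR-99, miR-100 and miR-125 group 5 of 6 were complete, with mean FCs of 0.32 to 1.08 in wt post-SE samples and 2 calls, both down. In P2rx7-/- post-SE samples these 5 were at 1.05 to 1.63 against P2rx7-/- controls. Both miR-200 passengers were called up against wt controls in P2rx7-/- controls as well as in wt post-SE samples, and in opposite directions in P2rx7-/- post-SE samples against P2rx7-/- controls (0.54 for miR-200a# and 2.63 for miR-200b#). Their Ct ranges were wide, 22.75 to 27.05 and 21.85 to 26.78.

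The members from hairpins with neuronal or choroid plexus guides, 4 of 7 complete, comprised miR-7a#, miR-204#, miR-218-1# and miR-218-2#. They were called in no direction in wt post-SE samples, with mean FCs of 0.82 to 1.06. In P2rx7-/- mice all 4 had mean FCs above 1, from 1.31 to 3.48, with miR-204# and miR-218-2# called up. In that comparison 30 of 43 members and 180 of 335 assays had a log2 difference above 0. The log2 difference of miR-218-2# went from 1.63 to 0.38 without P2rx7-/- control replicate 3. The Ct of miR-218-1# was a median of 2.56 cycles above that of miR-218-2#, with the single reversal (-1.56) in P2rx7-/- control replicate 3. The miR-15 and miR-16 group, 4 of 5 complete, had mean FCs of 0.53 to 1.15 in wt post-SE and of 0.93 to 1.42 in P2rx7-/- post-SE samples, with miR-15a# called down in wt mice. Of the vascular passengers only miR-214# was complete, and its mean FCs were 1.04 and 1.14. No call was made for 20 of the 43 members (46.5%) in any of the 5 comparisons, as for 40.0% of all assays.

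Another 21 members lacked a Ct in at least 1 sample and entered no comparison. Of these 10 had a Ct in every group. Next to miR-126#, miR-33a#, miR-17# and miR-7# these were miR-101a#, miR-15b#, miR-881#, miR-92a#, miR-488# and miR-708#. The Ct of miR-126#, a strand of the endothelial miR-126 hairpin, ran from 12.8 to 16.3 in its 11 samples, and that of miR-33a#, from a hairpin within the sterol regulator Srebf2, from 19.7 to 21.7. Both spread over all groups. Far wider ranges were listed for miR-881# (10.8 to 25.8), miR-708# (10.8 to 27.3) and miR-488# (14.8 to 26.8).

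No Ct in a whole group was found for 11 members. The most complete of these was miR-196a#, whose arm the assay name does not settle, with a Ct of 10.1 to 14.2 in 8 samples, among them all wt controls and all P2rx7-/- post-SE samples, and in none of the wt post-SE samples. The assay named miR-196A had a Ct in 3 samples, at a mean of 21.8. The others were miR-742# (5 samples, none a wt control, Ct 26.7 to 27.7), miR-135a# (3 samples), miR-470#, miR-19a# and miR-483# (2 samples each) and 5 members with a single Ct, miR-30c-2#, miR-10b#, miR-145#, miR-302c# and miR-712#. A missing Ct was not taken as absence, since the table also leaves abundant guides empty.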

How the data were processed

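Ct values (TaqMan OpenArray, QuantStudio 12K Flex, 1 µg of Trizol RNA, pre-amplified) were deposited beside fold changes, linear ratios that were scaled by the authors to the mean Ct of each sample and set relative to wt control replicate 1. The program that called Ct is not given in the sources used here. In the deposited fold changes an empty Ct had entered as 0, so Ct values were used, and the deposited ratios served as an alternative. Each sample pooled 2 hippocampi of different mice, and RNA degradation was not assessed. The mean Ct over the 335 assays with a Ct below 28 in all 12 samples was subtracted. FC was 2 to the power of minus the difference from the reference average. Groups were compared with limma 3.58.1 in R 4.3.3 (4 group coefficients, Benjamini-Hochberg over 335 assays, or over 45 strand pairs), tested on simulated data. All columns matched a sample. The depth of a qPCR array is not a count, so the number of samples limits the precision.

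Members were named when among the 3 lowest limma p of a contrast, when called without overlap, when called in both post-SE groups, when among the 3 lowest or highest in mean Ct, when read by several assays, or when among the 2 lowest p of the strand contrasts. The other members called by the FC rule, those gained without wt control replicate 1, rno-miR-125b# in wt post-SE samples and those with nearly level strands were named after their values were seen. The members and lists were chosen with earlier results of these data known.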

Additional observations from a re-analysis of the deposited data

How the results depend on the processing

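In limma no member and no member strand pair had an adjusted p below 0.05 under any alternative. The lowest adjusted p in any setting was 0.115 for a member and 0.131 for a strand pair. All 28 log2 differences and 16 strand differences that were recomputed kept their direction, except that of miR-193# between genotypes, which was -0.32 and became 0.0276 with snoRNA135 as normalizer. With that normalizer the median log2 difference of all assays was 0.44 in P2rx7-/- controls against wt controls, where it was -0.02 in the main setting. Sizes were not all kept. Without wt control replicate 1 the log2 difference of miR-29b-2# against wt controls went from -1.59 to -0.04 in P2rx7-/- post-SE samples. In wt post-SE samples it went from -1.82 to -0.28, whereas that of miR-335# stayed between 0.87 and 1.00 without each sample in turn.

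Counts of members called by the FC rule also changed between settings. Adding the two-group test can only remove calls, and the cause of the other changes was not tested. The share of all assays called is not given for these settings or without single samples, so the counts are no result about the members. In the order below, the median log2 difference of all assays was 0.44, 0.11, 0.35, 0.22 and 0.01 with snoRNA135. It was -0.19, -0.21, -0.24, -0.03 and 0.05 with the mean over all detected assays. For P2rx7-/- against wt controls, the count up was 8 with the median Ct, 16 with snoRNA135, 3 with Ct below 26, 3 with geometric means and 0 with the two-group test of the methods added, and the count down was 10 with the mean over all detected assays, 3 with snoRNA135 and 0 with the two-group test. For wt post-SE against wt control, the count up was 12 with snoRNA135, 3 with Ct below 26, 11 with a Ct in 2 of 3 samples and 1 with the two-group test, and the count down was 4 with snoRNA135 and 1 with the two-group test. For P2rx7-/- post-SE against wt control, the count up was 11 with the median Ct, 3 with all detected assays, 22 with snoRNA135, 11 with a Ct in 2 of 3 samples, 4 with geometric means, 0 with the two-group test and 3 with the deposited ratios, and the count down was 0 with the two-group test. Between the post-SE groups, the count up was 13 with the median Ct, 13 with snoRNA135, 3 with geometric means and 0 with the two-group test, and the count down was 2 with a Ct in 2 of 3 samples and 1 with geometric means. For P2rx7-/- post-SE against P2rx7-/- control, the count up was 0 with the two-group test, and the count down was 0 with Ct below 26, 2 with a Ct in 2 of 3 samples and 0 with the two-group test.

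Leaving out each sample in turn gave, in the same order of comparisons, 4 to 7, 4 to 8, 3 to 11, 3 to 12 and 4 to 13 members up, and 0 to 8, 2 to 8, 0 to 5, 0 to 3 and 0 to 2 down.

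With the replicate number as a block, 0 members and 0 strand pairs had an adjusted p below 0.05 in limma. The lowest p was 0.00659, for status epilepticus averaged over genotypes (adjusted p = 0.611). The deviations of same-numbered samples correlated at -0.23 to 0.28, and 4 of 18 correlations exceeded 0.1, of which 3 were between the third replicates of the groups other than wt control (0.25 to 0.28). The main fit had no block, since neither labels nor methods say that a number stands for a shared mouse, litter or day. Whether some groups shared a batch was not tested.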
